A study of Mus musculus with 15 samples.

Results

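Burned and unburned irradiated mice were compared by the splenic expression of 547 endogenous immune genes. The comparison used 12 of the 15 samples of the series, chosen by their labels alone. The 6 samples with burn were 3 of radiation combined with burn injury (RCI) and 3 of RCI with extracellular vesicles of mesenchymal stem cells (RCI+MSC-EVs). The 6 samples without burn were 3 of whole-body ionizing radiation (WBIR) and 3 of WBIR+MSC-EVs. All 12 samples came from female C57BL/6J mice, 6 to 8 weeks of age per the methods, that had received 9 Gy from a cesium irradiator. The burn was a full-thickness contact burn over 20% of the body surface, given within 1 hour before irradiation. MSC-EVs, prepared from cultured bone marrow stem cells, were injected into the tail vein 72 hours after injury, and spleens were taken 48 hours later. Per the study's text, mice without MSC-EVs received saline, whereas the labels name PBS for RCI and no vehicle for WBIR. For the burn, the methods name tribromoethanol anaesthesia, shaving, morphine by injection and in the drinking water, Lactated Ringer's solution and individual cages, none of which they name for WBIR mice, so that the burn and these procedures cannot be told apart. The 3 Sham samples, with neither injury, entered no test and give the level of uninjured spleen. In the burn model, per the methods, sham mice had the same procedure without burn or radiation. Sham and WBIR mice may therefore differ in these procedures too.

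Ionizing radiation kills dividing and resting lymphocytes in the spleen, and the surviving stroma, macrophages and radioresistant lymphocytes then make up more of the tissue. A large skin burn releases damage signals that act on Toll-like and interleukin-1 receptors, which signal through MyD88 and NF-kB and induce cytokines, chemokines and acute phase proteins. Chemokines of the CC class recruit monocytes and macrophages, while natural killer (NK) cells and cytotoxic T cells kill their targets with perforin and granzymes.

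Values are counts of colour-coded barcodes, 1 probe pair per gene, divided by a factor from the geometric mean of 14 reference genes, and are called scaled counts. They compare samples for a gene and not genes with each other. Total counts were 90127 to 598872 in the unburned samples, 294960 to 484525 in the burned samples and 179472 to 509621 in Sham, and WBIR+MSC-EVs replicate 1 had the lowest. RCI replicate 3 stood apart on the first principal component of the tested genes (37.9% of the variance, 19.2 against -5.84 to 3.72 in the other 11 samples). On the second component (26.2%), the other 5 burned samples lay at -6.84 to -3.30 and the 6 unburned samples at -0.22 to 8.56, with RCI replicate 3 at 3.44. Samples that carried the same number within an injury deviated together from their group means (correlations across genes of 0.277 to 0.686 over the 6 pairs), although the labels do not say that a number marks a shared mouse, cage or run. Nothing in the labels says either whether the 3 replicates of a group were separate mice, and the methods state that samples were run in triplicate, so that p-values measure the spread between these samples, which may be technical. Summed levels of the 18 B cell genes on the panel were 5768 to 8293 without burn, 3886 to 9034 with burn and 37540 to 77330 in Sham.

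With burn, the spleen carried more mRNA for the chemokines *Ccl9*, *Ccl6* and *Ccl7*, for the interleukin-1 receptor *Il1r1* and for *Tnf*. It carried less for the cytotoxic genes *Gzma*, *Prf1* and *Gzmb*. These genes passed in a test that takes the 12 samples as independent. With same-numbered samples of an injury as a block, described below, *Ccl9* and *Ccl6* alone of these passed. *Ccl7* and *Tnf* did not pass under every scaling. Of the 547 endogenous genes, 418 averaged 20 counts or more across the 12 samples and were tested, and 129 averaged less. Among the 418, 84 (20.1%) passed at an adjusted p under 0.05 in edgeR's quasi-likelihood test with MSC-EV treatment as a covariate. Of these, 66 rose with burn (15.8%) and 18 fell (4.31%). Differences ranged from -1.54 to 3.17 on the log2 scale with a median over all tested genes of 0.23. For 41 genes (9.81%), the 6 burned and 6 unburned samples did not overlap, and 37 of these were among the 84, 29 higher and 8 lower.

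The number of genes in each direction depended on the scaling. With trimmed mean of M-values (TMM) scaling over the endogenous genes, 49 genes passed, 15 higher and 34 lower, and the median difference moved by -0.23. With median-of-ratios scaling the count was 48 (16 higher and 32 lower), with the 7 least variable reference genes 49 (20 higher and 29 lower), and without the reference gene *Tubb5* 46 (22 higher and 24 lower). All 18 genes that fell, and 15 of the 66 that rose, passed in the same direction under all 5 scalings. The 15 were *Ccl9*, *Ccl6*, *Il1r1*, *Fcgr2b*, *Nt5e*, *Cd69*, *Ccrl2*, *Il6st*, *Cd27*, *Ltbr*, *Fas*, *Socs1*, *Il2rg*, *Ikbkb* and *Cd2*. None of the 84 genes changed sign under another scaling. As a scaling moves all genes by a similar amount, with a median of -0.23 for TMM, larger differences keep their sign in any case. The shift was downward with the other scalings too. It was -0.23 with median-of-ratios and -0.18 with 7 reference genes, and without *Tubb5* the median was 0.07 in place of 0.23. Such a shift favours falls and works against rises. That all 18 falls passed was therefore largely fixed, and these scalings put only the rises to a test.

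The count also depended on whether same-numbered samples were taken as independent. With the samples of 1 number and injury as a random block (limma, consensus correlation 0.436), 8 genes passed, all of them higher with burn: *Socs1*, *Ccl9*, *Il2rg*, *Nt5e*, *Prkcd*, *Ccl6*, *Ikbkb* and *Fas*, each at an adjusted p of 0.0301. All 84 genes had an unadjusted p under 0.05 in that fit, as did 101 of all 418 tested genes. The choice of the 84 in the same samples largely fixed this. With the counts of same-numbered samples summed, 3 against 3, *Ccl9* alone passed (adjusted p = 0.0111). There 71 of the 84, and 86 of all 418 tested genes, had an unadjusted p under 0.05. Without RCI replicate 3, 136 genes passed and all 84 were among them, whereas without RCI replicate 2 the count was 33. Without both unburned samples of number 1, 6 of the 18 lower and 38 of the 66 higher genes still passed. Below, rose and fell refer to the test that takes the 12 samples as independent. Counts within a list stand beside 15.8% of all tested genes that rose and 4.31% that fell.

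**Figure D1:**
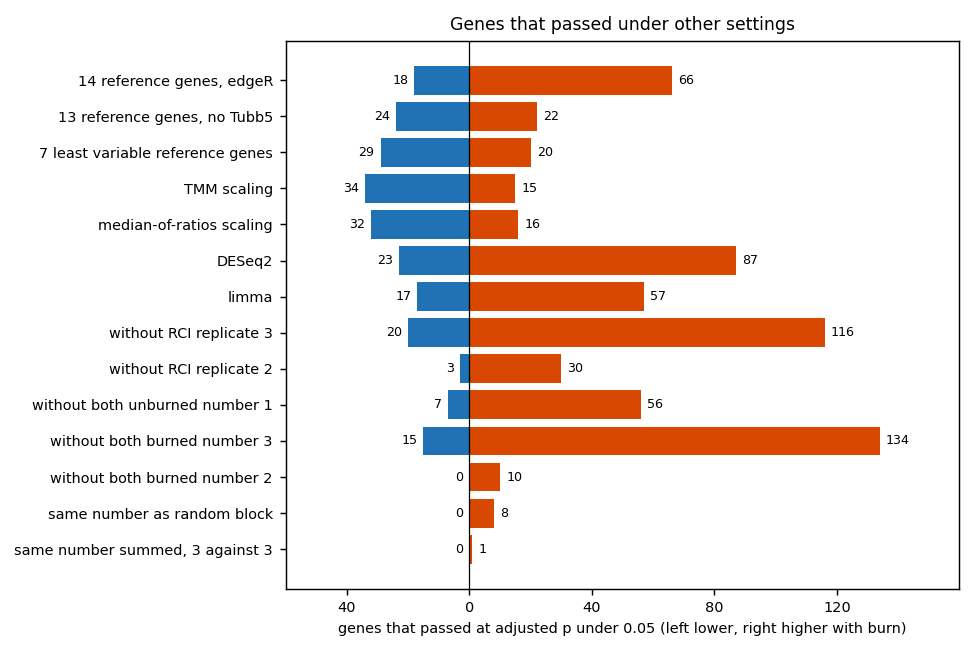
Number of genes that passed at an adjusted p under 0.05 in the comparison of burned with unburned samples, higher to the right and lower to the left, under each setting named on the vertical axis. The 66 higher and 18 lower genes of the first bar became 15 and 34 with TMM scaling, and 8 and 0 with same-numbered samples as a random block.

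Chemokines of monocytes and macrophages held the largest difference. *Ccl9* and *Ccl6*, which code for related CC chemokines that attract myeloid cells, are neighbours on mouse chromosome 11 (chr11:83572917-83578636 and chr11:83587886-83593087, RefSeq, GRCm38.p6). The 250 bases before each start, on the minus strand, are shown because both genes rose, with runs of at least 9 bases found in both windows in capitals.
Ccl9 (chr11:83578637-83578886): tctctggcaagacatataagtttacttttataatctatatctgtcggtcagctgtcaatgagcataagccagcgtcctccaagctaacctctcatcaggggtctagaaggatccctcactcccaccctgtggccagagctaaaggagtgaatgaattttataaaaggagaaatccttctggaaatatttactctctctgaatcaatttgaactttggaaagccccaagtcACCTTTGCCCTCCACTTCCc
Ccl6 (chr11:83593088-83593337): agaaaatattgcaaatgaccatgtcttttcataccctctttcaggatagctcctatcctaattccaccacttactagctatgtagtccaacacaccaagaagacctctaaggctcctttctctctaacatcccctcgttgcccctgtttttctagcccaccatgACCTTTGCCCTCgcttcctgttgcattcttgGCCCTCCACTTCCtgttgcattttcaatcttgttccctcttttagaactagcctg
The shared runs cover 19 bases in the *Ccl9* window and 25 in the *Ccl6* window, and their part in the expression was not tested.

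*Ccl9* had scaled counts of 34.7, 23.3 and 34.5 in WBIR and 61.8, 61.2 and 50.0 in WBIR+MSC-EVs. In RCI they were 232, 398 and 896, and in RCI+MSC-EVs 469.6, 199 and 195. Every burned sample lay above every unburned one, and the Sham samples, at 87 to 223, lay above the unburned samples and overlapped the burned ones. The log2 difference was 3.17 ± 0.45 (SE, n = 6 against 6, adjusted p = 0.00289), the largest of the 418 genes. *Ccl6* rose by 1.52 ± 0.26 (adjusted p = 0.00416) with 125 to 206 (median 153) in the unburned and 222 to 678 (median 468) in the burned samples, again with no overlap. *Ccl7*, a monocyte attractant, rose by 2.05 ± 0.54 (adjusted p = 0.0242), but its scaled counts were 2.57 to 11.8 (median 5.79) without burn and 10.9 to 81.5 (median 18.1) with burn, so that it rests on few counts, and RCI replicate 3 was its highest sample. Without that sample the difference was 1.41 (adjusted p = 0.00792). With TMM scaling its adjusted p was 0.0633.

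Among the 10 tested of the 12 chemokines in this list, 3 rose (30%, beside 15.8% of all tested genes), 1 fell and 6 did not pass. The list median was 0.95 beside 0.23 for all tested genes. It was 0.56 without RCI replicate 3, and it was 1.43 without MSC-EVs and 0.60 with them. *Ccl5*, which attracts T and NK cells and which cytotoxic lymphocytes release, was the one that fell, by 0.87 ± 0.26 (adjusted p = 0.0382). The receptor *Ccr2*, which binds CC chemokines, fell too, at -0.71 ± 0.21 (adjusted p = 0.0406). *Ccrl2*, a receptor that presents chemerin without signalling, rose by 0.93 ± 0.22 (adjusted p = 0.0211). Without both unburned samples of number 1, *Ccl5* and *Ccr2* no longer passed (adjusted p = 0.119 and 0.124).

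**Figure D2:**
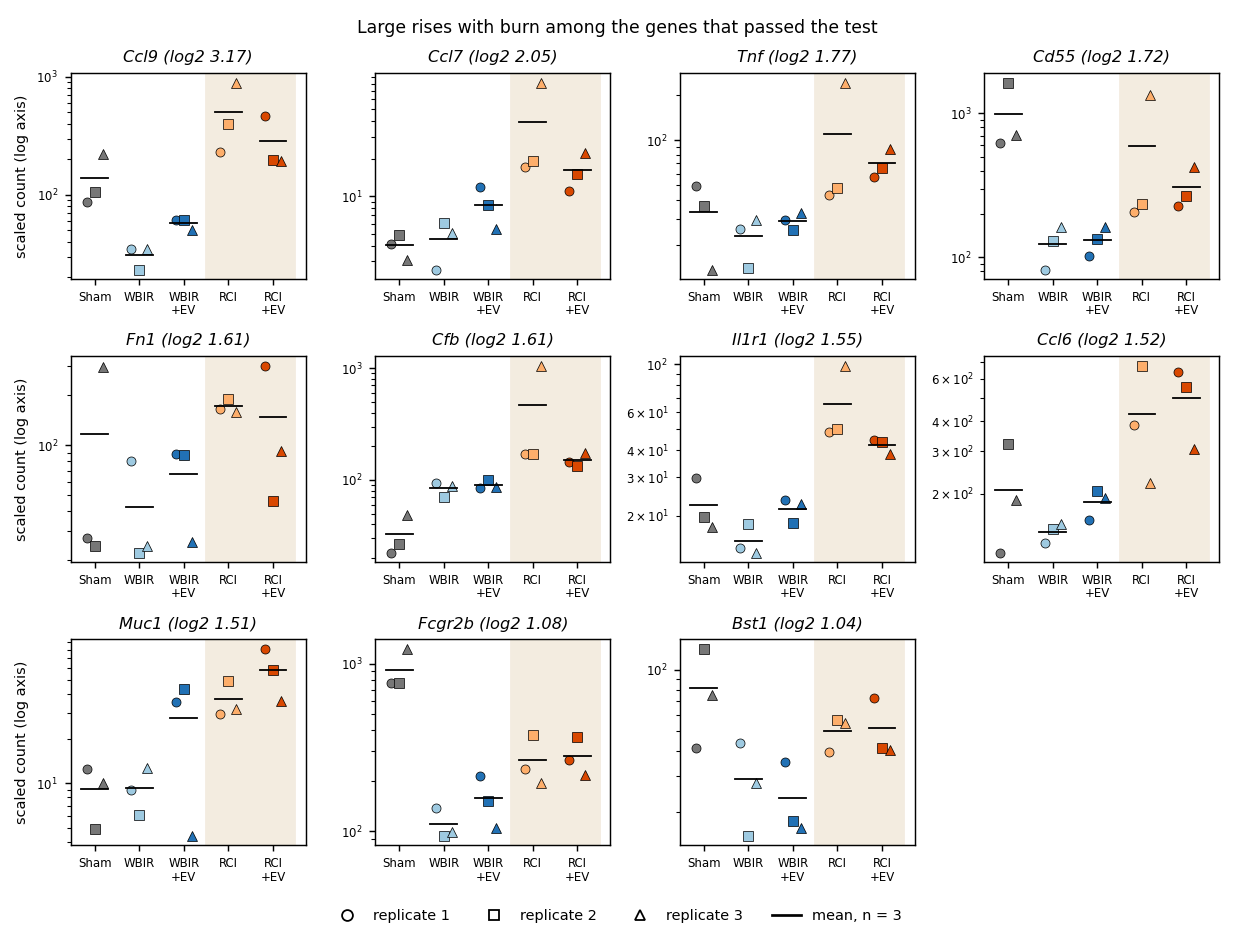
Scaled counts per sample on a log axis for 11 of the 12 genes with the largest rise among those that passed, with the burned groups shaded, symbols by replicate number and bars at the mean of 3 samples. The burned samples lay above the unburned ones without overlap in Ccl9, Ccl6, Il1r1, Tnf, Cd55 and Cfb, and RCI replicate 3 was the highest burned sample in Ccl9, Ccl7, Tnf, Cd55, Cfb and Il1r1.

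Few interleukin-1 and Toll-like receptor genes passed, and those that did rose, as did 66 of all 84 genes that passed. *Il1r1*, the signalling receptor for interleukin-1, had scaled counts of 14.2, 18.2 and 13.5 in WBIR, 23.5, 18.5 and 22.5 in WBIR+MSC-EVs, 48.4, 50.3 and 98.4 in RCI and 44.5, 43.7 and 38.3 in RCI+MSC-EVs. The arms did not overlap, and the log2 difference was 1.55 ± 0.27 (adjusted p = 0.00416). Raw counts of *Il1r1* without burn were 8 to 41, so that it too rests on few counts. *Il1a*, a ligand of that receptor, also had no overlap, at 92.1 to 138 (median 122) without burn and 148 to 1634 (median 191) with burn, but did not pass (1.77 ± 0.59, adjusted p = 0.0568). Its highest value came from RCI replicate 3. Of the 15 tested genes of the interleukin-1 family, 2 rose (13.3%, beside 15.8% of all tested genes) and 13 did not pass. The family median of 0.22 was close to that of all genes. The other one that rose was *Tollip*, an adaptor that dampens interleukin-1 and Toll-like receptor signals, at 0.45 ± 0.09 (adjusted p = 0.00826), with 300.2 to 353 (median 339) against 427 to 493 (median 452) and no overlap.

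The adaptors *Myd88* and *Tirap*, which link Toll-like receptors to their kinases, rose by 0.40 ± 0.11 (adjusted p = 0.0242) and 0.58 ± 0.15 (adjusted p = 0.0242), and *Cd14*, the co-receptor for lipopolysaccharide, by 0.86 ± 0.24 (adjusted p = 0.0309). These were 3 of the 10 tested genes of the Toll-like receptor list (30%, beside 15.8% of all tested genes), whose median was 0.42. *Myd88* did not overlap between unburned (391 to 486, median 434) and burned samples (489 to 669, median 578), and both arms lay above Sham (205 to 272). None of these 3 genes passed with TMM scaling (adjusted p = 0.382, 0.179 and 0.145).

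In the NF-kB list, 3 of 13 tested genes rose (23.1%, beside 15.8% of all tested genes) and none fell, with a median of 0.47. Without RCI replicate 3 the median was 0.31. With TMM scaling 1 was higher and 1 lower. *Ikbkb*, the kinase that releases NF-kB from its inhibitor, had 150.5 to 206 (median 185) without burn and 254 to 339 (median 294) with burn, a rise of 0.69 ± 0.12 (adjusted p = 0.00416) with no overlap. It was the one of the 3 that passed under all scalings and with same-numbered samples as a block. *Ikbke*, a related kinase, and *Nfkbiz*, a nuclear co-factor of NF-kB, rose by 0.98 ± 0.24 (adjusted p = 0.0222) and 1.00 ± 0.32 (adjusted p = 0.0461), with their highest values in RCI replicate 3 (790.4 and 814). Sham levels of all 3 lay above every unburned sample (482 to 1556 for *Ikbkb*).

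Of the 25 tested genes of the TNF superfamily, 6 rose, where 15.8% of all tested genes did, and none fell, with a median of 0.28. *Tnf*, the founding cytokine, had 25.7, 14.2 and 29.5 in WBIR, 29.4, 25.3 and 33 in WBIR+MSC-EVs, 43, 47.9 and 241 in RCI and 57.1, 65.5 and 87.3 in RCI+MSC-EVs. It rose by 1.77 ± 0.44 (adjusted p = 0.0232) with no overlap, although RCI replicate 3 was far above the other burned samples, and without it the difference was 1.13 (adjusted p = 0.00315). Raw counts of *Tnf* without burn were few, at 10 to 60. *Fas*, a death receptor and p53 target, rose by 0.80 ± 0.15 (adjusted p = 0.00826) with 28.3 to 52.2 (median 36.2) in the unburned and 58.7 to 81.6 (median 60.8) in the burned samples, also with no overlap. *Ltbr*, the lymphotoxin-beta receptor of stromal and myeloid cells, and *Ltb*, its lymphocyte ligand, rose by 0.82 ± 0.16 (adjusted p = 0.0105) and 0.77 ± 0.18 (adjusted p = 0.0178). For *Ltbr* the Sham samples (28.2 to 63.7) lay below both arms, and for *Ltb* (2070.3 to 3218) far above both (274 to 479, median 359, without burn and 399 to 754, median 699, with burn). *Cd27*, a receptor of T and B cells, and *Traf5*, an adaptor of these receptors, rose by 0.82 ± 0.18 (adjusted p = 0.0171) and 0.39 ± 0.11 (adjusted p = 0.0309).

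Of 17 tested JAK-STAT genes, 3 rose (17.6%, beside 15.8% of all genes) and 1 fell, with a median of 0.17, and with TMM scaling 1 was higher and 5 were lower. *Socs1*, which is induced by cytokines and inhibits JAK kinases, had 158, 145 and 192 in WBIR and 215, 232 and 259.5 in WBIR+MSC-EVs. In RCI the values were 274, 274 and 303 and in RCI+MSC-EVs 357, 436 and 400.1. The arms did not overlap and *Socs1* rose by 0.77 ± 0.11 (adjusted p = 0.00289), with close values in each stratum (0.78 ± 0.16 without MSC-EVs and 0.75 ± 0.15 with them). *Il2rg*, the common gamma chain of several interleukin receptors, rose by 0.71 ± 0.11 (adjusted p = 0.00416), with 189 to 256 (median 248) in the unburned and 329.6 to 416 (median 378) in the burned samples. *Jak2* and *Stat3* rose by 0.43 ± 0.09 (adjusted p = 0.0157) and 0.34 ± 0.10 (adjusted p = 0.0387), and *Jak3*, the kinase that binds the gamma chain, fell by 0.54 ± 0.14 (adjusted p = 0.0242).

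In the interleukin-6 family, *Il6st*, the shared signalling chain gp130, *Il6ra*, the interleukin-6 receptor, and *Stat3* rose among 6 tested genes (median 0.38). These are 50% of the list, beside 15.8% of all tested genes. *Il6st* had 161 to 202 (median 185) without burn and 241 to 439 (median 327) with burn with no overlap and rose by 0.83 ± 0.14 (adjusted p = 0.00416). *Il6ra* rose by 0.72 ± 0.18 (adjusted p = 0.0222) with overlap, its lowest burned value, 255, being RCI replicate 3. With TMM scaling *Il6st* passed and *Il6ra* did not (adjusted p = 0.0205 and 0.0589).

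The list of *C3*, alternative and terminal complement genes and their regulators had a median of 1.21 over 7 tested of 20 on the panel. The median was 0.75 without RCI replicate 3, and it was 1.81 without MSC-EVs and 0.47 with them. *Cfb*, which forms the alternative convertase, had 93.9, 70.9 and 88.5 in WBIR, 85.3, 99.4 and 86.9 in WBIR+MSC-EVs, 171, 171 and 1052 in RCI and 145, 132 and 176 in RCI+MSC-EVs. RCI replicate 3 was thus far above the next sample, and the other 5 burned samples still lay above all unburned ones. The log2 difference of *Cfb* was 1.61 ± 0.50 (adjusted p = 0.041), and without RCI replicate 3 it was 0.86 (adjusted p = 0.00112). *Cd55*, which breaks down the convertase on cells, rose by 1.72 ± 0.47 (adjusted p = 0.0278). *Cd55* had no overlap (82.4 to 162, median 132, against 205 to 1333, median 252) and was at 623 to 1632 in Sham, and without RCI replicate 3 its difference was 1.01 (adjusted p = 0.00585). *C3* did not pass (1.21 ± 0.43, adjusted p = 0.0681). Of the 8 classical pathway genes tested, *C4a*, whose near-identical copy *C4b* the probe may also count, rose (0.94 ± 0.26, adjusted p = 0.0309). *Cfb*, *Cd55* and *C4a* did not pass with TMM scaling (adjusted p = 0.106, 0.0698 and 0.107).

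Of 10 tested macrophage markers, *Msr1*, a scavenger receptor, and *Cd14* rose (20%, beside 15.8% of all tested genes) and 8 did not pass. The list median was 0.20. *Msr1* had 285 to 957 (median 364) without burn and 656 to 1033 (median 963) with burn, its highest unburned value being WBIR+MSC-EVs replicate 2, and rose by 1.03 ± 0.28 (adjusted p = 0.0294). The haemoglobin scavenger *Cd163* and the growth factor receptor *Csf1r* had differences of -0.86 and -0.20 and did not pass. Summed macrophage marker levels were 12430 to 25170 without burn, 19180 to 37290 with burn and 2746 to 4394 in Sham. The highest burned sum was RCI replicate 3, where the scavenger receptor *Marco* alone had 27539, and without that sample the highest was 21530. Among 10 Fc receptor and adaptor genes, *Fcgr2b*, the inhibitory IgG receptor of B cells and macrophages, rose by 1.08 ± 0.23 (adjusted p = 0.0151), with 94.2 to 215 (median 121) in the unburned and 195 to 374 (median 250.2) in the burned samples, both well below Sham (767 to 1226). *Lilrb4*, an inhibitory receptor of myeloid cells, rose by 0.57 ± 0.18 (adjusted p = 0.0437), and *Lilrb3*, in the list of neutrophil genes, by 0.53 ± 0.15 (adjusted p = 0.035). The neutrophil genes *Cxcr2*, *S100a9* and *S100a8* had differences of -1.51 ± 0.52 (adjusted p = 0.0592), -1.01 ± 0.45 (adjusted p = 0.135) and -0.72 ± 0.43 (adjusted p = 0.262).

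Of 16 tested NK and cytotoxic genes, 6 fell, none rose and 10 did not pass, with a median of -0.78 beside 0.23 for all genes, of which 4.31% fell. *Gzma*, granzyme A, had 1668, 625 and 804 in WBIR and 1657, 621 and 652 in WBIR+MSC-EVs, against 495, 374 and 312 in RCI and 334, 522 and 384 in RCI+MSC-EVs. The arms did not overlap, both unburned samples of number 1 were the highest, and the difference was -1.31 ± 0.30 (SE, n = 6 against 6, adjusted p = 0.0191). *Prf1*, perforin, which opens the target membrane, fell with 78.6 to 249.6 (median 94.7) in the unburned and 37.3 to 65.5 (median 55.8) in the burned samples with no overlap (-1.27 ± 0.31, adjusted p = 0.0222). In bulk RNA, fewer cytotoxic cells and less of these mRNAs per cell cannot be told apart.

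*Gzmb*, granzyme B, fell by 1.07 ± 0.31 (adjusted p = 0.035), with RCI replicate 3 inside the unburned range. *Klrd1*, *Klrc1* and *Klrk1*, which code for the CD94, NKG2A and NKG2D receptors that NK cells use to read class I molecules and stress ligands, fell by 0.98, 0.77 and 0.78 on the log2 scale (adjusted p = 0.041, 0.0303 and 0.0483). *Klrk1* alone of the 3 had no overlap (291 to 486, median 328 against 92.6 to 275, median 239). *Eomes* and *Tbx21*, the transcription factors of NK and effector cells, had differences of -1.11 ± 0.45 (adjusted p = 0.0994) and -0.79 ± 0.36 (adjusted p = 0.137) and did not pass. Summed levels of the list were 2661 to 5403 without burn, 2069 to 2829 with burn and 2566 to 8154 in Sham. Without both unburned samples of number 1, *Gzma* and *Prf1* remained of the 6 (adjusted p = 0.0246 for both), with differences of -0.74 and -0.73, while *Gzmb*, *Klrd1*, *Klrc1* and *Klrk1* did not pass. With TMM scaling 7 genes of the list fell, and with same-numbered samples as a block none passed (adjusted p = 0.0786 for *Gzma*).

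Most of the largest falls shared 1 feature among the unburned samples. In 9 of 11 genes with the largest falls, all but *Icam1* and *Cxcr6*, both unburned samples of number 1 lay above the other 4 unburned samples. These samples also had the lowest total counts of the irradiated samples. The totals were 204412 in WBIR replicate 1 and 90127 in WBIR+MSC-EVs replicate 1, and the next was 285018 in WBIR replicate 2. Whether low depth has a part in the feature was not tested. Choosing genes by their fall favours high unburned values, and the same count was not made over all tested genes. Whether the feature is particular to the falls therefore cannot be told. *Xcl1*, a chemokine of cytotoxic lymphocytes that attracts cross-presenting dendritic cells, fell by 1.16 ± 0.30 (adjusted p = 0.0242). The chemokine receptors *Cxcr3* and *Cxcr6* fell by 0.75 ± 0.17 and 0.81 ± 0.21 (adjusted p = 0.0171 and 0.0242), and *Cxcr6* did not overlap (70.8 to 133, median 98.9 against 39.4 to 67.6, median 60.3). *Ifitm1*, an interferon-inducible membrane protein, had the largest fall of the 418 genes, -1.54 ± 0.41 (adjusted p = 0.0242). Its scaled counts were 111 to 671 (median 263) without burn and 80.7 to 136 (median 107) with burn, highest in WBIR+MSC-EVs replicate 1, and it did not pass without both unburned samples of number 1 (adjusted p = 0.0826). *Icam1*, an adhesion molecule of endothelium and leukocytes, fell by 0.86 ± 0.25 (adjusted p = 0.034). It had 308 to 643 (median 480.1) without burn and 181 to 423 (median 222) with burn, against 174 to 234 in Sham.

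**Figure D3:**
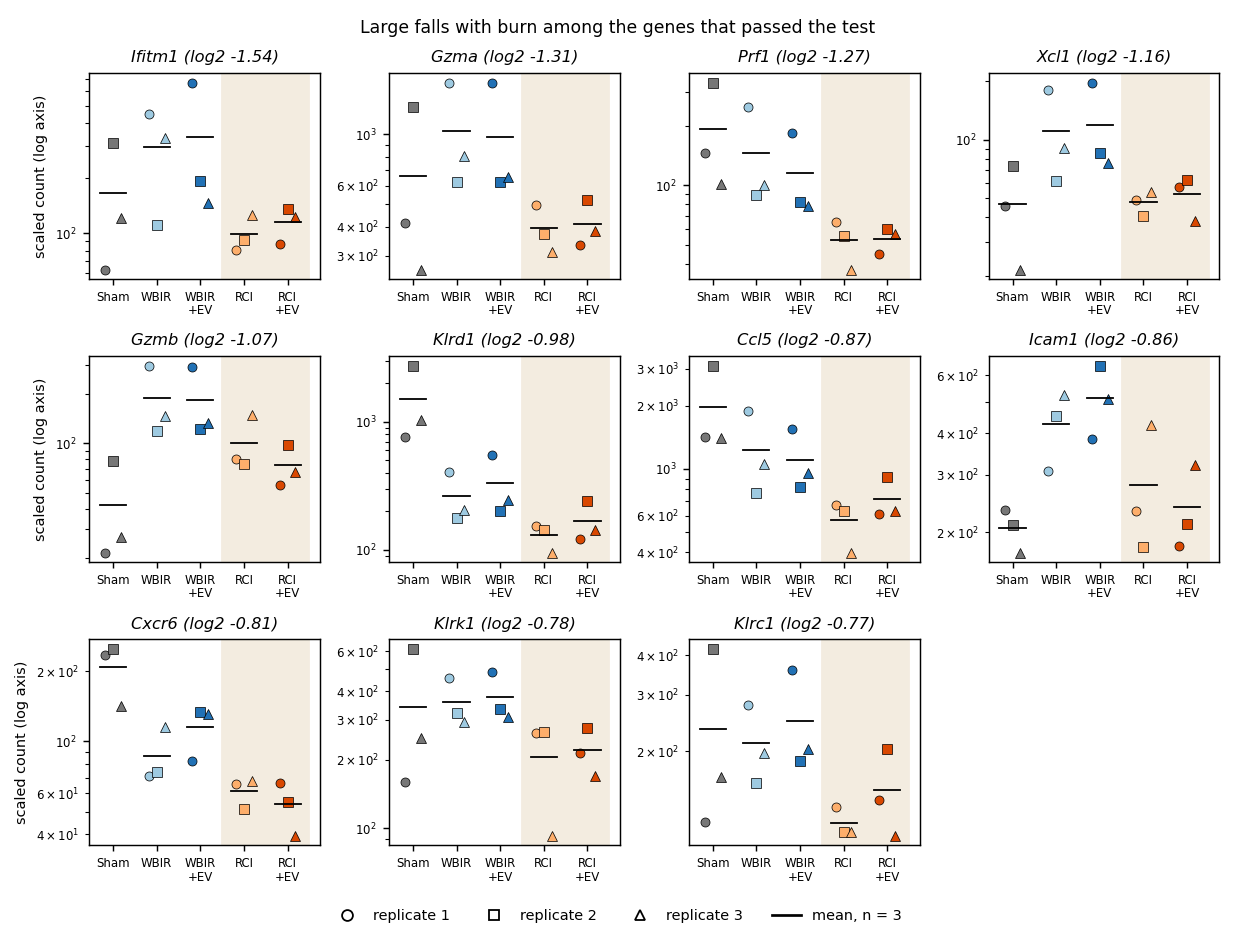
Scaled counts per sample on a log axis for 11 of the 12 genes with the largest fall among those that passed, drawn as for the rises. Gzma, Prf1, Cxcr6 and Klrk1 did not overlap between the 6 burned and 6 unburned samples, and in 9 of the 11 genes, all but Icam1 and Cxcr6, both unburned samples of number 1 lay above the other unburned samples. That count was not made over all tested genes.

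Of 23 tested T cell genes, 6 rose, where 15.8% of all tested genes did, none fell and 17 did not pass, with a median of 0.29, close to the 0.23 of all genes. *Cd2*, an adhesion receptor of T and NK cells, rose by 0.66 ± 0.15 (adjusted p = 0.0171), and *Cd3d*, a chain of the T cell receptor complex, by 0.57 ± 0.15 (adjusted p = 0.0242). *Cd3d* had 328, 280.5 and 427 in WBIR, 312, 381 and 454 in WBIR+MSC-EVs, 520.2, 548 and 373 in RCI and 589.8, 714 and 537 in RCI+MSC-EVs. RCI replicate 3 was the lowest burned sample, and all 12 lay far below Sham (1646 to 2587). *Foxp3* and *Ctla4*, which mark regulatory T cells, and *Cd5* rose by 0.77 ± 0.24 (adjusted p = 0.0406), 0.64 ± 0.17 (adjusted p = 0.0242) and 0.56 ± 0.17 (adjusted p = 0.0406). The co-receptors *Cd4* and *Cd8a* had differences of 0.22 and -0.02 and did not pass. *Cd2* and *Cd27* passed with TMM scaling and the other 4 did not. Summed T cell gene levels were 3689 to 5315 without burn, 3637 to 7736 with burn and 18570 to 36720 in Sham.

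None of the 15 tested B cell genes passed, and their median was -0.01. *Btla*, an inhibitory receptor, had the smallest p of them (0.39 ± 0.14, adjusted p = 0.0642), and *Ms4a1*, which marks B cells, had a difference of 0.28. Of 10 class II presentation genes none passed (median 0.23), and of 7 dendritic cell markers *Ccr7*, the lymph node homing receptor, rose (0.67 ± 0.22, adjusted p = 0.0473). In the class I and proteasome list, *H2-K1*, a class I heavy chain, and the proteasome subunits *Psmc2*, *Psmb5* and *Psmb7* rose by 0.57, 0.40, 0.50 and 0.37, and the immunoproteasome subunit *Psmb10* fell by 0.40 ± 0.12 (adjusted p = 0.0419). With TMM scaling none of the 4 that rose passed, and 3 genes of the list were lower.

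Of 9 tested genes of the endothelial list, 3 rose (33.3%, beside 15.8% of all tested genes) and 1 fell. The list median was 0.42, and with TMM scaling 1 gene was higher and 1 lower. *Nt5e*, the ecto-nucleotidase CD73 that makes adenosine on endothelium and lymphocytes, had 30.9 to 64.7 (median 41.8) without burn and 71.1 to 118 (median 93.8) with burn, with no overlap, and rose by 1.02 ± 0.16 (adjusted p = 0.00416). *Cdh5*, the endothelial cadherin, and *Icam2* rose by 0.82 ± 0.24 (adjusted p = 0.0339) and 0.50 ± 0.16 (adjusted p = 0.0461), and *Fn1*, fibronectin, by 1.61 ± 0.50 (adjusted p = 0.0423) with overlap (22.3 to 88.3, median 52.8 against 46 to 302, median 162). Of 9 TGF-beta and matrix genes *Fn1* alone passed (11.1%, beside 15.8% of all genes that rose). Outside these lists, the epithelial mucin *Muc1* and the ectoenzyme *Bst1* of stromal and myeloid cells were among the 12 largest rises (for *Muc1* 1.51 ± 0.46, adjusted p = 0.0406, for *Bst1* 1.04 ± 0.29, adjusted p = 0.0309), both with overlap. *Muc1* rests on few counts, with raw values of 7, 6 and 15 in WBIR and 12, 77 and 8 in WBIR+MSC-EVs.

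Among 13 tested p53 and apoptosis genes, *Fas*, *Bax*, which permeabilises mitochondria, and *Bcl2*, which opposes it, rose. These are 23.1% of the list, beside 15.8% of all tested genes. *Bax* had 724 to 791 (median 756) without and 912 to 1020 (median 981) with burn, a small rise with no overlap (0.36 ± 0.08, adjusted p = 0.0178), and *Bcl2* rose by 0.62 ± 0.18 (adjusted p = 0.0375). Of 18 interferon-inducible genes and sensors, *Ifitm1* fell and *Ifnar1*, a receptor chain for type I interferon, rose (0.37 ± 0.10, adjusted p = 0.0309), with a list median of 0.08. Of 4 plasma cell and germinal centre genes, *Xbp1*, a transcription factor of secretory cells, rose (0.48 ± 0.14, adjusted p = 0.035). No gene passed among the leukocyte integrins (9 tested), the colony-stimulating factor and progenitor genes (9), the type 2 genes (10), the platelet genes (4), the C-type lectins (2), the neutrophil chemokines (2) and the mast cell and eosinophil markers (1). A further 20 of the 84 genes were in no list, among them *Prkcd*, a protein kinase C, which rose with no overlap (0.58 ± 0.10, adjusted p = 0.00416), the early activation marker *Cd69* (0.94 ± 0.21, adjusted p = 0.0171), and *Tbk1* and *Fyn*, signalling kinases that fell (-0.36 ± 0.10, adjusted p = 0.0242 for *Tbk1* and -0.38 ± 0.12, adjusted p = 0.0406 for *Fyn*).

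**Figure D4:**
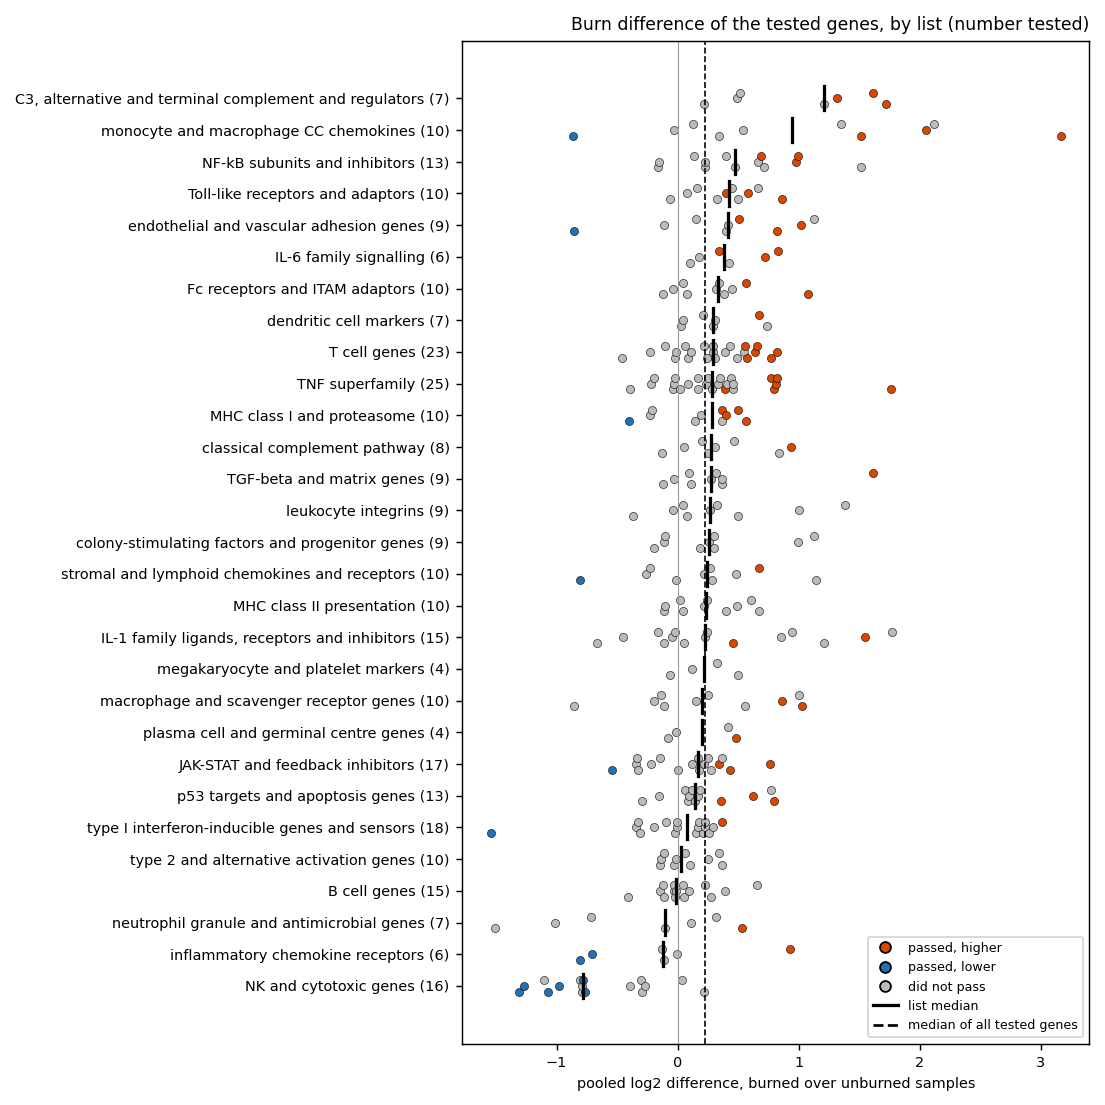
Pooled log2 difference of each tested gene, burned over unburned samples, by list, for lists with at least 4 tested genes. Coloured points passed, heavy bars are list medians, and the dashed line is the median of all 418 tested genes, 0.23. The NK and cytotoxic genes had the lowest median, -0.78, and the list of C3, alternative and terminal complement the highest, 1.21, although with MSC-EVs its median of 0.47 was below the 0.60 of the CC chemokines.

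Sham levels place these differences beside those of unburned irradiated from uninjured spleen, as a description with no test. The latter hold the radiation and may hold the procedures that the methods name for the burn. Of the 66 genes that rose, 47 had an unburned mean below the Sham mean. For 37 of the 47 the burned mean was also below Sham, as in *Il2rg* (430.0 to 1029 in Sham) and *Ikbkb*, and for 10 it was above, as in *Ccl9*. The other 19 had an unburned mean at or above Sham, such as *Msr1* (17.1 to 53.8 in Sham) and *Ltbr*. Of the 18 genes that fell, 10 had an unburned mean at or below Sham. Among all 418 tested genes, 261 had an unburned mean below Sham.

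The burn comparison was repeated in each stratum of MSC-EV treatment, to ask whether the burn difference depended on the vesicles. Without MSC-EVs (RCI against WBIR, 3 against 3), 8 genes passed (1.91%), all higher with burn: *Socs1*, *Ccl9*, *Nt5e*, *Il6st*, *Il1r1*, *Cd99*, *Ccl7* and *C4a*. In limma 8 and in DESeq2 54 genes passed there. With MSC-EVs none passed in edgeR (0%) or limma, 22 passed in DESeq2, and 70 had an unadjusted p under 0.05 in edgeR, against 103 without MSC-EVs. All 8 genes had the same sign with MSC-EVs, and 6 of them, all but *Ccl7* and *C4a*, did not overlap there either. Among all 418 tested genes, 78.5% had the same sign in both strata, and 126 did not overlap with MSC-EVs. Since same-numbered samples of an injury deviated together, the strata may not be independent of each other. All 84 genes of the pooled comparison had the same sign in both strata, which their choice by that comparison in the same samples largely fixed.

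The difference between the burn effects itself passed for no gene (0%, smallest adjusted p = 0.993; 0 in DESeq2 and limma too). Before adjustment, 12 of the 418 genes had a p under 0.05 in edgeR, 15 in DESeq2 and 11 in limma, and the 12 are 2.87% of the genes where the threshold itself is 5%. The smallest unadjusted p belonged to *C4a*, *Ptger4* and *Il6st*. *C4a* had 599, 609 and 712 in RCI and 340.2, 321 and 313 in RCI+MSC-EVs, against 269, 155 and 227 in WBIR and 218, 379 and 183 in WBIR+MSC-EVs. Its burn difference was 1.56 ± 0.28 without and 0.31 ± 0.27 with MSC-EVs. For *Il6st* it was 1.15 ± 0.16 without and 0.51 ± 0.16 with MSC-EVs, and for *Ptger4*, a prostaglandin E2 receptor, 0.26 ± 0.24 without and -0.74 ± 0.24 with MSC-EVs. *Ccl9*, also among the 12, had 4.04 ± 0.54 without and 2.33 ± 0.51 with MSC-EVs.

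**Figure D5:**
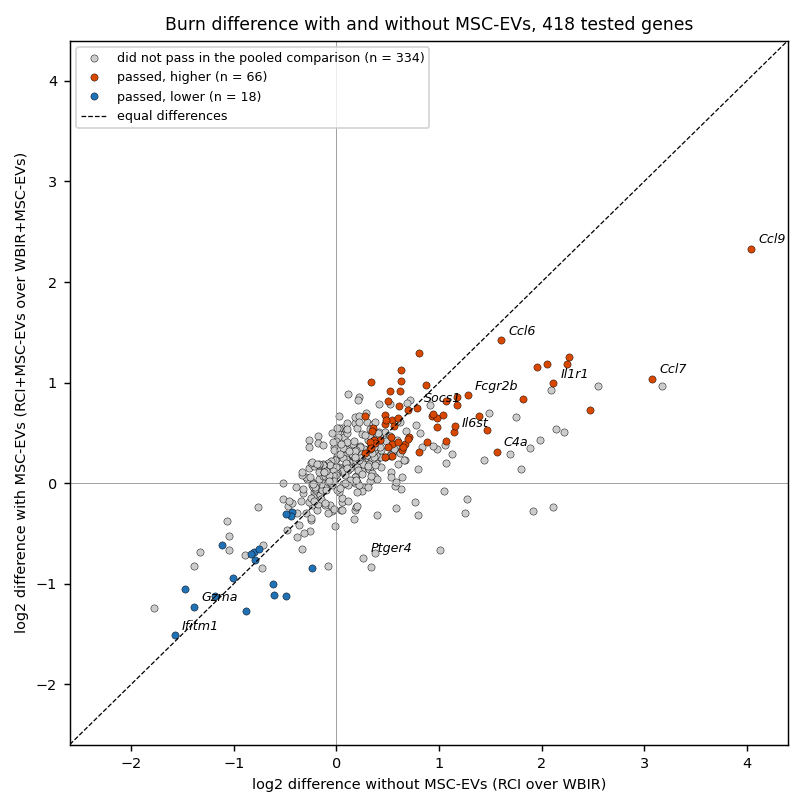
Burn difference of each tested gene (log2) without MSC-EVs on the horizontal axis and with MSC-EVs on the vertical axis, coloured by the pooled comparison, with a dashed line where both are equal. All 66 higher and 18 lower genes lie at the upper right and the lower left of the origin, and Ccl9 stands farthest out at 4.04 and 2.33. The coloured genes were chosen by the pooled comparison of the same samples, which favours equal signs.

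The reference genes bear on every value, since they set the scale. Of the 14, *Tubb5*, a beta-tubulin of dividing cells, differed by -2.03 on the log2 scale between burned and unburned samples, with no overlap, and was the only one past 2-fold. It differed by -1.99 without and -2.07 with MSC-EVs. *Hprt* and *Ppia* were lower without overlap (-0.51 and -0.33), and *Gapdh*, *Rpl19* and *Eef1g* higher without overlap (0.32, 0.43 and 0.71). As the reference genes average to 0 by construction, a lower *Tubb5* raises all others, and without *Tubb5* the median of all tested genes was 0.07 in place of 0.23.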

How the data were processed

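Spleen cells were suspended and red cells lysed, and RNA was hybridised to the nCounter Mouse Immunology Panel by the authors, who normalised and tested the values in nSolver. The table they deposited gives unnormalised barcode counts, judged from its whole numbers and from totals that differ between samples. No value was 0, and 84 of 8415 were 1. No background was subtracted, as control probes were not analysed, and no genome build applies. Current RefSeq symbols (GRCm38.p6) matched 409 of the 418 tested genes, and older symbols the other 9.

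Counts were scaled to the geometric mean of the 14 reference genes and tested with edgeR 4.0.16 (R 4.3.3; robust quasi-likelihood, 12 irradiated samples, burn and MSC-EV treatment as terms, 9 residual degrees of freedom), for endogenous genes averaging 20 counts or more. Tests were two-sided, with Benjamini-Hochberg adjustment over all 418 genes, and SE is the absolute log2 difference over the square root of F. The strata and their difference came from a fit with 1 coefficient per group (8 residual degrees of freedom). The common dispersion was 0.0882, a variation of 29.7% between samples. This spread and 6 samples an arm limit precision for most genes, and counting error does so for genes with few counts.

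The comparison, gene lists and members were chosen with earlier results of these data known. Named genes were the 12 largest rises and 12 largest falls that passed, up to 4 genes of smallest p in each list, the 3 smallest p for the difference between strata, and reference genes past 2-fold. Not every such gene is reported here, some results being left out, and genes that follow no rule, among them *Cd163*, *Csf1r*, *S100a8*, *Eomes*, *Tbx21*, *Cd4*, *Cd8a*, *Ms4a1*, *Prkcd*, *Cd69*, *Tbk1*, *Fyn* and *Marco*, were chosen after their values were seen. Alternatives were TMM, median-of-ratios and 7-gene scaling, DESeq2 1.42.0, limma 3.58.1 (pseudocount 10), no filter, a mean of at least 100 counts, replicate blocks, all 15 samples, no covariate and leaving out each sample. Random blocks, summed samples, pairs left out together and scaling without *Tubb5* were added after seeing the data.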

Additional observations from a re-analysis of the deposited data

Results flagged for a closer look

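For 22 of the genes with the largest rises and falls, each arm of 6 samples was searched for a sample far from the rest by Dixon's ratio, the gap to the nearest sample over the range of the arm, on log2 scaled counts. Of 44 sets, 4 passed its 95% critical value, and chance flags about 1 in 20. RCI replicate 3 was far from the other burned samples in *Cfb* (1052 against 175.6 in the next sample, ratio 0.863), *Il1r1* (98.4 against 50.3, ratio 0.711) and *Ccl7* (81.5 against 22.4, ratio 0.644). WBIR replicate 2 was low in *Tnf* (14.2 against 25.3, ratio 0.684).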

How the results depend on the processing

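Of the genes named, 59 were followed under up to 33 alternatives each, and all kept their direction in all 1932 values. Of the 59, 57 had passed in these same samples, and this choice largely fixed their direction. Of the 1932 values, 1211 stayed on their side of the threshold, 715 no longer passed and 6, of *Il1a*, now did. The counts moved. The 84 genes (66 higher, 18 lower) became 49 (15 and 34) with TMM, 48 (16 and 32) with median-of-ratios, 49 (20 and 29) with 7 reference genes, 46 (22 and 24) without *Tubb5* and 17 (17 and 0) with all 15 samples in the fit. DESeq2 (110), limma (74), no filter (90), a mean of at least 100 counts (68), no covariate (86) and 1 coefficient per group (76) stayed within 1.5 times. Leaving out each sample gave 33 to 136 genes, 29 to 116 higher and 3 to 20 lower. Without MSC-EVs, the 8 genes became 54 in DESeq2, 5 with a mean of at least 100 counts, 4 with all 15 samples and 4 to 24 with 1 sample left out. With MSC-EVs, the 0 genes became 22 in DESeq2, 7 with a mean of at least 100 counts and 0 to 35 with 1 sample left out, 35 being without RCI replicate 3, which that comparison itself does not hold. The difference between the strata gave 0 throughout.

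Replicate numbers as a block over all 4 groups gave 74 genes. Burned and unburned samples of 1 number had correlations of both signs (-0.313 to 0.293), and did not deviate together as a set. The highest, WBIR replicate 2 with RCI replicate 2, lay within the range of the pairs of an injury (0.277 to 0.686). This block was not taken as a pairing, and pairs of 1 number within a treatment as a block gave 24 genes (19 higher, 5 lower). Same-numbered samples of an injury did deviate together, and as a random block they gave 8 genes (8 and 0), summed 1 gene (1 and 0). Leaving out such pairs in turn gave 63 (56 and 7), 40 (29 and 11) and 23 (19 and 4) without the unburned numbers 1, 2 and 3, and 25 (24 and 1), 10 (10 and 0) and 149 (134 and 15) without the burned ones. The cause of these shifts was not tested.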
